A study of Mus musculus with 2 samples.

Results

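The SLC25 family comprises the mitochondrial carriers, membrane proteins that move nucleotides, phosphate, carboxylates, amino acids, cofactors and metals across the inner mitochondrial membrane. Its members were taken here as all protein-coding genes of the RefSeq annotation of GRCm38.p6 (mm10) whose symbol starts with Slc25a, leaving out Slc25a37, Slc25a38 and Slc25a39. Slc25a28 and Slc25a40, of the iron and glutathione group, were kept. Genes of the family with other symbols, such as the Ucp genes and Mtch2, were not taken as members. This gave 44 genes of 21792 protein-coding genes. Gata1 peaks were counted for a gene when their midpoint fell in the gene body or in the 10 kb flanking it on either side. Of the 44 carrier genes, 8 had such a peak (18.2%, 95% Wilson interval 9.51 to 32.0%), against 3611 of all protein-coding genes (16.6%). The share of the carriers was near that background.

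Gata1 is a DNA-binding regulator needed to make red cells, and its binding was mapped by chromatin immunoprecipitation and sequencing. The cells came from mouse embryonic stem cells grown into embryoid bodies, and were taken on day 5 by sorting for the Runx1-ires-GFP and Gata1::mCherry reporters; the series calls them primitive erythroid, and several sorts were pooled. The series has 1 library made with the Gata1 antibody and 1 titled input chromatin, whose antibody field names rabbit IgG and for which no file was analysed. Which control the peaks were called against, if any, is not given in the sources used here. Both came from the same reporter cells, and no untreated or Gata1-free cells were compared. The authors' list held 4135 peaks, each 400 bp wide, with no height, score or p-value, so each site is reported as called or not called and the read depth is unknown. Without a replicate, no value below carries an error between cultures, and intervals cover the counting of genes only.

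Carriers are built from a tandem repeat of a short membrane module and mostly exchange a substrate inside the matrix for another outside it. The ADP/ATP carriers deliver ATP to the cytosol, the carboxylate and aspartate/glutamate carriers link the citric acid cycle to the cytosol, and cofactor carriers supply enzymes in the matrix. In developing red cells, mitochondria are also the site of the first and last steps of haem synthesis, for which glycine and iron must be imported.

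Each of the 8 carrier genes had exactly 1 peak, so 8 distinct peaks lay in the windows. A single peak was also usual in the background, where 2 or more were counted for 678 of the 3611 genes that had any. Of the 8 carrier peaks, 2 had their midpoint inside the gene and 6 outside it. Over all protein-coding genes, 2036 of the 3611 with a peak had one inside the gene. The gene with the closest peak to a transcription start was Slc25a4, which encodes the ADP/ATP carrier Ant1. It spans 46207168 to 46211062 on the minus strand of chromosome 8. The peak at chr8:46210870-46211269 had its midpoint 7 bp upstream of the annotated start, and no other protein-coding gene lay within 10 kb of that midpoint. The other carriers of its role group, ADP/ATP and phosphate, had no peak within 10 kb. The count for the group was thus 1 of 4 genes (25%, Wilson interval 4.56 to 69.9%, which holds the 16.6% of all protein-coding genes). The nearest peak lay 47.7 kb from Slc25a3, the phosphate carrier gene, 228 kb from Slc25a31, which encodes Ant4, and 392 kb from Slc25a5, which encodes Ant2 and lies on the X.

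The bases before the start of Slc25a4 are shown with those of Slc25a5, its relative without a peak, as an example only. Both are from RefSeq (GRCm38.p6), 5′ to 3′ on the gene's strand, at chr8:46211063-46211312 (minus strand) and chrX:36795347-36795596 (plus strand). Capitals mark the common GATA factor motif on either strand, searched as AGATAA or with a final G as AGATAG, and with an initial T instead as TGATAA or again with a final G as TGATAG.
Slc25a4: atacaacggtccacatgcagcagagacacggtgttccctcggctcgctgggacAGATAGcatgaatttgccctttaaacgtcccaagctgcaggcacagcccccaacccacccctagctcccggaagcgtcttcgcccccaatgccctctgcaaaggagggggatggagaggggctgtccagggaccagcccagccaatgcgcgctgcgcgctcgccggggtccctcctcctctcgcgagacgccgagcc
Slc25a5: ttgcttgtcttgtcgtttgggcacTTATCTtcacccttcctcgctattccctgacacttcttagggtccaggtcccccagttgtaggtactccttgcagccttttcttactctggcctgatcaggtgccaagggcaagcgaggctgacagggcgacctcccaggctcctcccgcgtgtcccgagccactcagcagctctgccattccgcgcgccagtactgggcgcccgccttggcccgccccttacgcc
Of the 250 bases shown for Slc25a4, 207 lay in the peak. They hold AGATAG at -197 to -192, counted back from -1 just before the start, which was 187 bp from the peak midpoint. Slc25a5 holds AGATAA on the other strand at -226 to -221, with no peak called there. The 300 bases around the start of Slc25a4 had 65.7% G and C and 25 CG dinucleotides, and those of Slc25a5 had 61.0% and 18. A match of these letters was thus present with and without a called peak.

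Slc25a21 encodes the oxodicarboxylate carrier, which brings intermediates of lysine and tryptophan breakdown into the matrix. It is the longest of the 44 genes at 485 kb (56712634 to 57197472 on the minus strand of chromosome 12). Its only peak was nonetheless at the start, at chr12:57197098-57197497, with the midpoint 175 bp inside the transcribed region of the outermost start and 36.7 kb upstream of the other annotated start. The bases before the outermost start, at chr12:57197473-57197722 (minus strand), are shown because the peak reaches 25 of them. They hold none of the motif letters above.
Slc25a21: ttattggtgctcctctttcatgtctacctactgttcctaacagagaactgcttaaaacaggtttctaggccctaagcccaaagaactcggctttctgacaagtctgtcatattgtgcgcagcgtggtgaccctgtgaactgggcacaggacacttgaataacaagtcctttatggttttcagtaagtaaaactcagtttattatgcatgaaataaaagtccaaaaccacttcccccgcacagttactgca
The window around this start had 43.0% G and C and 4 CG dinucleotides, lower than at Slc25a4. No other protein-coding gene shared the peak.

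At the other dicarboxylate gene with a peak, the peak was closer to a neighbour. Slc25a11, encoding the oxoglutarate/malate carrier of the malate-aspartate shuttle, lies at 70644019 to 70647531 on the minus strand of chromosome 11. The peak at chr11:70638807-70639206 was 5.01 kb past its 3′ end and 8.03 kb from its start. The same peak lay 116 bp from the start of Gp1ba, which encodes the platelet receptor subunit glycoprotein Ib alpha, and 8.22 kb from Rnf167. The bases before the Gp1ba gene, at chr11:70638872-70639101 (plus strand), are printed because all 230 of them lie in the peak counted for Slc25a11.
Gp1ba: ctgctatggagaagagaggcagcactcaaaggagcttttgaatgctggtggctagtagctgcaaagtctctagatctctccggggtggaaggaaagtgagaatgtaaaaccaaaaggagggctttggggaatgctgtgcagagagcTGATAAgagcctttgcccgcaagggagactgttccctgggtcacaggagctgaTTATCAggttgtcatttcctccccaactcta
They hold TGATAA on both strands, at 14 bp and 67 bp from the peak midpoint. AGATAG on the other strand, at 95 bp from the midpoint, also lay in the peak; it crosses the annotated edge of the gene, where the printed bases end (at -21 from the start), and is therefore not shown whole. Peaks were thus counted for 2 of 4 carboxylate carriers (50%, interval 15.0 to 85.0%, with 16.6% over all protein-coding genes). The remaining carriers of that group had none within 10 kb: the nearest was 52.1 kb from Slc25a1, the citrate carrier gene, and 85.8 kb from Slc25a10, the dicarboxylate carrier gene.

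**Figure D1:**
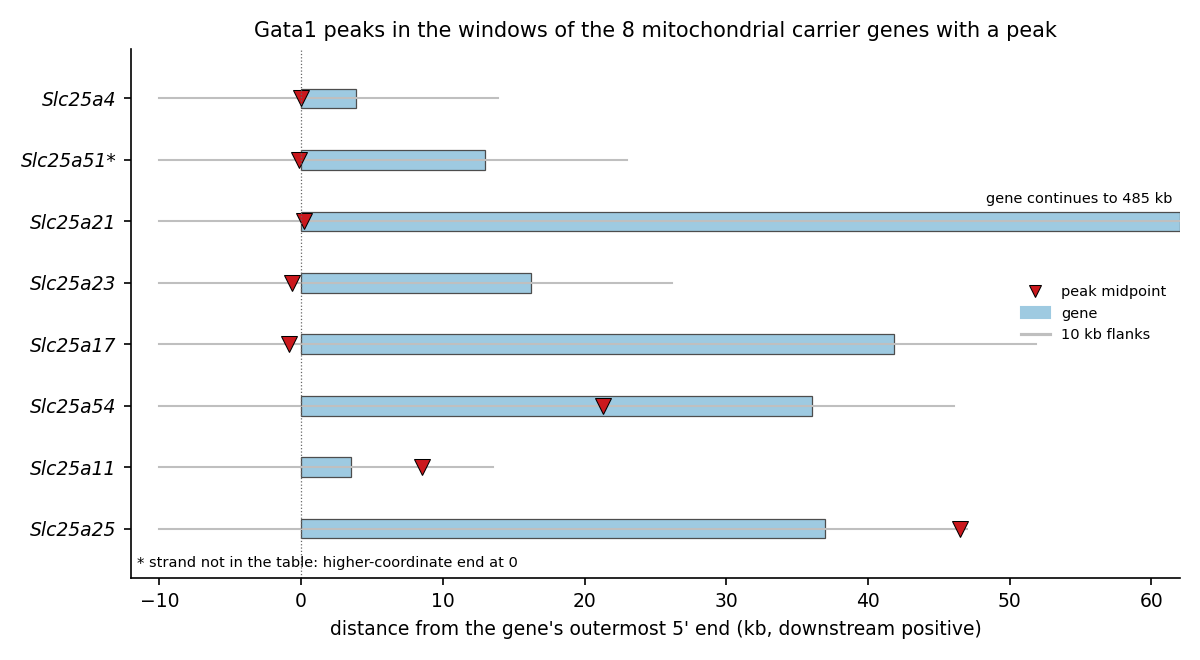
Each row is 1 of the 8 carrier genes with a peak, drawn to scale from its outermost 5′ end (x axis, kb, downstream positive), with the gene as a bar, its 10 kb flanks as a line and the peak midpoint as a triangle; the strand of Slc25a51 was not in the promoter table, so its higher-coordinate end is placed at 0. The triangles of 5 genes sit within 1 kb of 0, that of Slc25a54 inside the gene, and those of Slc25a11 and Slc25a25 past the 3′ end.

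The ATP-Mg/phosphate carriers exchange ATP-Mg for phosphate and so set the adenine nucleotide pool of the matrix. Of the 4 genes in this group, 2 had a peak (50%, Wilson interval 15.0 to 85.0%, which holds the 16.6% of all protein-coding genes). Slc25a23 (57043711 to 57059909 on the minus strand of chromosome 17) had one at chr17:57060359-57060758, 695 bp upstream of its nearest annotated start. That peak was also 1.64 kb from Crb3 and 5.49 kb from Dennd1c. Slc25a25 (32414487 to 32451470 on the minus strand of chromosome 2) had one at chr2:32404789-32405188, 9.50 kb past its 3′ end and 19.1 kb from its nearest start. The peak of Slc25a25 was the outermost of those counted, and lay nearer to Ptges2, at 2.25 kb.

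The other carriers of this kind lie beside genes with a peak. Slc25a41 ends 2.06 kb below Slc25a23, and the peak upstream of Slc25a23 was 18.9 kb from it. Slc25a24 starts 6.57 kb above Slc25a54, a gene that RefSeq lists with a synonym of the same ATP-Mg carrier type. Slc25a54 was nonetheless placed in no role group, so the count for the ATP-Mg/phosphate carriers leaves it out. Slc25a54 (109080499 to 109116582 on the plus strand of chromosome 3) had its peak inside the gene at chr3:109101620-109102019, 21.3 kb downstream of its start. This peak was also the nearest to Slc25a24, at 21.3 kb below that gene, and lay in no other protein-coding window. Of the other neighbouring carriers under 50 kb apart, Slc25a29 with Slc25a47 and Slc25a43 with Slc25a5, none had a peak within 10 kb.

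Of 9 nucleotide and cofactor carriers, 2 had a peak (22.2%, Wilson interval 6.32 to 54.7%, against 16.6% of all protein-coding genes), both close to a gene end. Slc25a51 encodes the mitochondrial NAD carrier and lies at 45395923 to 45408917 on chromosome 4. The peak at chr4:45408846-45409245 had its midpoint 128 bp above the gene's higher-coordinate end and 345 bp from the start of the noncoding gene Gm46852. The strand of Slc25a51 is not in the promoter table used here, so the end was not assigned to its start. Slc25a17, which encodes a carrier of coenzyme A, FAD and NAD in peroxisomes rather than mitochondria, lies at 81318921 to 81360765 on the minus strand of chromosome 15. Its peak at chr15:81361422-81361821 was 856 bp upstream of its start and 3.42 kb from St13. The other genes of the group had none within 10 kb, among them Slc25a33 and Slc25a36 (pyrimidine nucleotides), Slc25a42 and Slc25a16 (coenzyme A), Slc25a26 (S-adenosylmethionine) and Slc25a32 (folate).

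Carriers of amino acids had no called peak near them. None of 8 had a peak within 10 kb (a share of up to 32.4% by the Wilson interval, or 37.5% if 3 counts are taken as the limit of a count of 0). The group holds Slc25a12 and Slc25a13 (aspartate/glutamate), Slc25a18 and Slc25a22 (glutamate), Slc25a2 and Slc25a15 (ornithine), Slc25a29 (basic amino acids) and Slc25a44 (branched-chain amino acids). Their nearest peaks lay between 69.1 kb (Slc25a29) and 598 kb (Slc25a13), with a median of 174 kb. With 8 genes, a share equal to the background of 16.6% lies within that interval.

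The remaining groups also had no peak within 10 kb. They were the acylcarnitine carrier gene Slc25a20, with its nearest peak at 83.5 kb, and Slc25a28 and Slc25a40 of the iron and glutathione group. Slc25a28, encoding mitoferrin 2, had its nearest peak at 54.3 kb, and Slc25a40, a relative of the mitochondrial glutathione carrier, at 167 kb. For the uncoupler-like genes the distances were 32.4 kb for Slc25a14, 116 kb for Slc25a30 and 399 kb for Slc25a27. The Wilson intervals reached 79.3% for acylcarnitine (1 gene), 65.8% for iron and glutathione (2 genes) and 56.1% for uncoupler-like genes (3 genes). Each holds the 16.6% of all protein-coding genes, so in groups this small the lack of a peak does not set them apart. Of the 9 genes placed in no role group, Slc25a54 had a peak and 8 did not (11.1% with a peak, Wilson interval 1.99 to 43.5%). Among the genes the rule leaves out, Slc25a38, encoding the glycine carrier needed to start haem synthesis, had 1 peak, at chr9:120115630-120116029 and 5.45 kb downstream of its start inside the gene, and Slc25a37 and Slc25a39 had none.

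**Figure D2:**
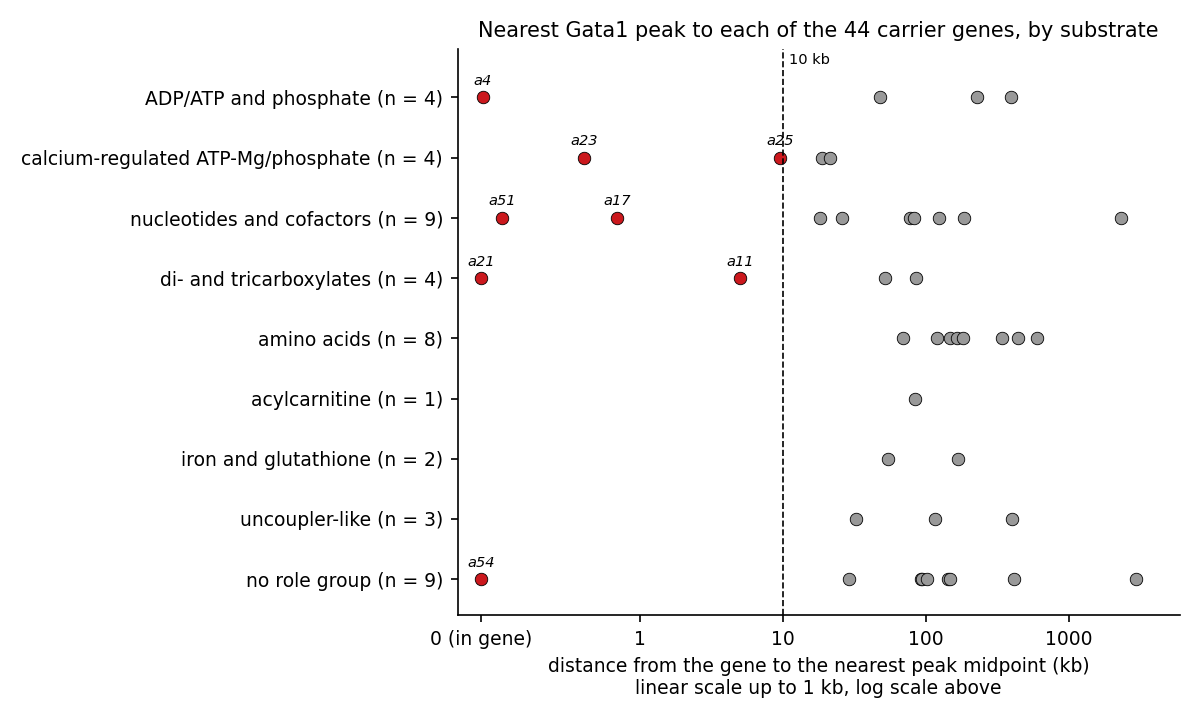
Each point is 1 of the 44 carrier genes at the distance from the gene to its nearest Gata1 peak midpoint (x axis, kb, linear up to 1 kb and logarithmic above), in rows by substrate. Red points are the 8 genes with a peak within 10 kb (dashed line), labelled without the Slc25 prefix, and the amino acid row has all 8 points beyond 69 kb.

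No carrier gene had its nearest peak between 10 and 18 kb. Just inside the limit was Slc25a25 at 9.50 kb, and just outside were Slc25a33 at 18.2 kb, Slc25a41 at 18.9 kb and Slc25a24 at 21.3 kb. In all, 7 genes had their first peak between 10 and 50 kb, the others being Slc25a42, Slc25a45, Slc25a14 and Slc25a3, and 29 had none within 50 kb. The farthest were Slc25a53 on the X at 2.94 Mb, Slc25a26 at 2.32 Mb and Slc25a13 at 598 kb. The median distance was 89.4 kb (quartiles 24.7 and 171 kb), against 135 kb (28.9 and 467 kb) over all protein-coding genes. The 4 carriers on the X, Slc25a5, Slc25a14, Slc25a43 and Slc25a53, had no peak within 10 kb, on a chromosome where 38 of 963 protein-coding genes (3.95%) had one. On the autosomes the count was 8 of 40 carriers (20%, 10.5 to 34.8%), against 17.3% of autosomal protein-coding genes.

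The carriers and the background stood differently by window. Within 1 kb of either gene end, 5 carriers had a peak midpoint (11.4%, Wilson interval 4.95 to 24.0%), against 4.25% of all protein-coding genes. These were Slc25a4, Slc25a17, Slc25a21, Slc25a23 and Slc25a51. Inside the gene body, 2 carriers had a peak (4.55%, 1.26 to 15.1%), against 9.34%. The shares were 13.6% against 11.3% with 1 kb flanks, 13.6% against 13.9% with 5 kb flanks and 34.1% against 32.0% with 50 kb flanks. Of 34 carriers with a start in the promoter table, 4 had a peak within 1 kb of one (11.8%, 4.67 to 26.6%), against 4.26% of 17492 protein-coding genes with an entry. All 4 are among the 5 with a peak at a gene end, so the 2 counts are not separate results. The background share lay just below the Wilson interval at gene ends and at starts, and inside it for the gene body. The counts at gene ends, in the gene body and at starts are of 2 to 5 genes. The list was chosen with earlier results known, and no test was made of these counts.

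**Figure D3:**
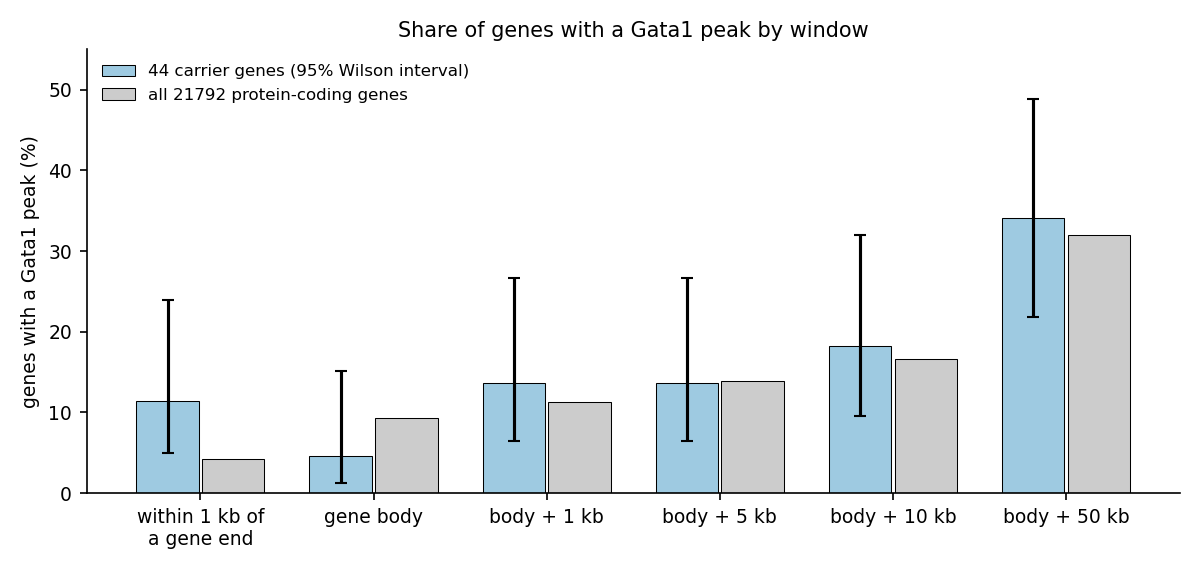
Bars give the percentage of genes with a Gata1 peak midpoint in the named window (y axis) for the 44 carrier genes (blue, with 95% Wilson intervals) and all 21792 protein-coding genes (grey). The pairs are close for the windows with 1 to 50 kb flanks; at gene ends the carriers stand at 11.4% against 4.25%, and in the gene body at 4.55% against 9.34%.

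Longer genes have larger windows, and the carriers were therefore set beside all protein-coding genes of like length. Of carriers under 10 kb, 2 of 14 had a peak within 10 kb (14.3%), against 10.4% of all genes of that length. The counts were 2 of 6 for 10 to 20 kb (background 16.6%), 3 of 19 for 20 to 50 kb (17.4%) and 1 of 5 over 50 kb (25.5%). Each background share lay within the Wilson interval of the carriers in the same class.

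Other transporters of the mitochondrial membranes were counted in the same way from a list of 27. Of these, 8 had a peak within 10 kb (29.6%, Wilson interval 15.9 to 48.5%, which holds the 16.6% of all protein-coding genes). Abcb10, a transporter of the inner membrane needed for haem production, had 2 at 5.72 and 7.49 kb upstream of its start. Vdac3, a porin of the outer membrane, had 1 at 0.222 kb above the gene, Letm1 (cation exchange) 1 in the gene at 3.67 kb from its start, and Abcb8 1 in the gene. Ucp3, an uncoupling protein of the carrier family under another symbol, had 1 at 5.73 kb upstream, which lay inside the neighbouring C2cd3. Mtch2, a carrier family protein of the outer membrane, had 1 at 3.65 kb above the gene, and Sfxn3, a sideroflexin, 1 at 7.76 kb above it. The other 19 genes, among them the pyruvate carrier genes Mpc1 and Mpc2, the uniporter gene Mcu, Ucp1 and Ucp2, had none. The list is not wholly outside the carrier family, as the Ucp genes and Mtch2 belong to it.

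Of groups defined by symbol, 11 of 49 Nduf genes for complex I and its assembly had a peak (22.4%, 13.0 to 35.9%). The counts were 5 of 26 Timm and Tomm genes of protein import (19.2%, 8.51 to 37.9%) and 12 of 78 Mrpl and Mrps genes of the mitochondrial ribosome (15.4%, 9.03 to 25%). Slc genes outside the Slc25 family, most of them for transporters of other membranes, had 60 of 328 (18.3%, 14.5 to 22.8%). All these intervals overlap that of the carriers and hold the 16.6% of all protein-coding genes, and the differences were not tested.

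**Figure D4:**
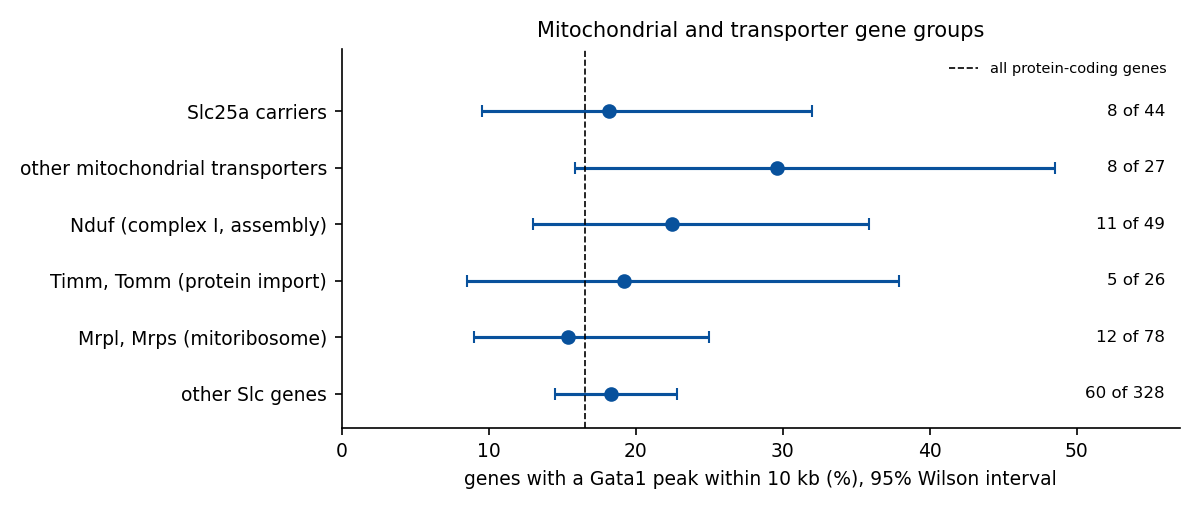
Points give the percentage of genes with a Gata1 peak within 10 kb (x axis) with 95% Wilson intervals for the carriers and 5 other gene groups, with the counts at the right and the share of all protein-coding genes as a dashed line. The carriers stand at 8 of 44, and every interval drawn includes the dashed line.

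RefSeq promoter windows, 250 bases before to 50 after a start, were present for 34 of the 44 carriers, with 44 windows in all. Of these, 2 overlapped a peak, at Slc25a4 and Slc25a21, against 452 of 21263 protein-coding windows. AGATAA was found on either strand in 3 carrier windows (6.82%) and in 9.65% of 21263 protein-coding windows. TGATAA was found in 3 (6.82%, against 7.60%), AGATAG in 5 (11.4%, against 7.92%) and TGATAG in none (against 6.51%). Among the 452 protein-coding windows that overlapped a peak, the shares were 21.5% for AGATAA, 10.2% for TGATAA, 11.5% for AGATAG and 6.19% for TGATAG. Slc25a23, with its peak further upstream, had TGATAA in its windows, and Slc25a12, with its nearest peak 537 kb from its start, also had it.

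Motifs of other factors were searched in the same windows. CCACNCCC, a letter pattern of CACCC boxes bound by Klf factors, was in 16 carrier windows (36.4%, from 15 genes), against 19.4% of protein-coding windows and 21.5% of those that overlapped a peak. By gene it was in 15 of 34 carriers, against 3784 of 17492 protein-coding genes with a window. The carrier windows had a median of 59.3% G and C, against 56.3% over protein-coding windows. Whether this bears on the share of so C-rich a motif was not tested. CCACNCCC was in neither carrier window with a peak. GCATGCGC, the core of the site of NRF1, a factor known for genes of mitochondria, was in 2 windows, those of Slc25a31 and Slc25a54 (4.55%, against 3.52%). CCGGAAGT, the core of ETS factor sites, was in that of Slc25a20 (2.27%, against 5.15%). Windows of 1 gene can overlap, so these counts are not of independent sequences.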

How the data were processed

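For the Gata1 library the authors deposited peak intervals with no header and no score. The submitters' processing notes name Bowtie2 2.0.6, MACS2 2.0.10 and mm10. How these were set, which threshold was applied and whether the control was used is not given in the sources used here. Genes came from a RefSeq table of GRCm38.p6, without 340 entries whose positions under 3 Mb (autosomes and X) are scaffold coordinates. Starts, strands and sequences came from a RefSeq promoter table of the same build. Positions are 1-based. Counting was tested on simulated peaks. Python 3.11.15, numpy 2.4.6, scipy 1.17.1 and pandas 2.3.3 were used.

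The members, role groups and lists were chosen with earlier results of these data known. No test was run, because 1 unreplicated list allows none between conditions. Some genes are counted and not named here. Every carrier with a peak was named, with the 3 nearest and 3 farthest without one; other names, and the sequences of Slc25a5 and Gp1ba and the motifs AGATAG and TGATAG, were chosen after values were seen. Protein features were planned and not analysed here. Alternatives changed the window, the placing of peaks, the members and the background.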

Additional observations from a re-analysis of the deposited data

How the results depend on the processing

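The number of carriers with a peak (8), the number of distinct peaks (8) and the ratio of the carriers' share to that of all protein-coding genes (1.10) depended on the window. With the gene body only they were 2, 2 and 0.487, and with gene ends alone (1 kb either way) 5, 5 and 2.67. With 50 kb flanks they were 15 and 16, with a ratio of 1.07. Within 1 kb of a transcription start, 4 carriers had a peak, all of them among the 5 at gene ends, with a ratio of 2.76. The counts of these alternatives use more or less of each locus by construction. In the ratios the background was counted in the same window as the carriers. Why the ratio moved with the gene body, gene ends and starts was not tested. Flanks of 1 or 5 kb, any overlap, the nearest gene only, the 3 left-out genes put back, close peaks counted once and autosomes only gave 6 to 9 carriers and 6 to 9 peaks, with ratios of 0.98 to 1.21. Without unnamed and chemosensory genes in the background the ratio was 0.961. Autosomes only, that background and transcription starts were chosen after seeing the data. No paired analysis was possible because the series has 1 ChIP library. Depth and threshold are unknown, so genes listed without a peak may hold binding that was not called.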
